A study of Mastomys natalensis with 4 samples.

Results

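The chaperones and folding catalysts were compared in stomach mucosa of Mastomys natalensis, a rodent known for gastric endocrine tumours, between 16 and 8 weeks of loxtidine, a histamine H2 receptor blocker that suppresses acid secretion. Members were chosen by a rule on gene symbols: HSP70, HSP110, HSP90, small heat shock proteins, HSP60 and HSP10, J proteins, the chaperonin CCT, the co-chaperones St13 and Stip1, FK506-binding proteins (FKBP) and the cyclophilins Ppia to Ppih, leaving out the endoplasmic reticulum (ER) chaperone Hspa5. This gave 96 probe sets for 71 genes, out of 8251 genes named by a single symbol on the mouse U74 array. The samples were 2 from mucosa treated for 16 weeks, a stage labelled neoplasia of enterochromaffin-like (ECL) cells, and 2 from mucosa treated for 8 weeks, labelled ECL cell hyperplasia. Both groups had received the drug, and untreated mucosa was not analysed here, so a difference sets a later against an earlier stage under the same treatment. The labels used here give no age, sex or strain. The name cytosolic and mitochondrial chaperones covers most members but not all, since the symbols also take in 11 genes whose products are known residents of the ER or secretory pathway: Dnajb9, Dnajb11, Dnajc1, Dnajc3, Dnajc10, Fkbp2, Fkbp7, Fkbp9, Fkbp11, Ppib and Ppic.

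Chaperones bind unfolded proteins and keep them from aggregating. HSP70 proteins do so in cycles of ATP hydrolysis that J proteins start and HSP110 proteins reset, and they pass clients to HSP90 through Stip1. HSP60 with its lid HSP10 folds proteins inside the mitochondrion, CCT folds actin and tubulin in the cytosol, and FKBPs and cyclophilins turn peptide bonds at proline. Secretory epithelia such as the gastric mucosa make much protein and express these genes constitutively, while Hspa1a, Dnajb1, Hspb1 and Hsp90aa1 are textbook targets of heat shock factor.

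The measure was the deposited intensity of each probe set on a linear scale. The arrays had median intensities of 19.2 and 18.9 in 16-week mucosa and 15.4 and 17.3 in 8-week mucosa. Mouse probes were hybridised with RNA of another genus, so intensities were compared between samples for the same probe set, and a dim probe set does not show a missing transcript. Values under 12.15, the floor of measurable intensity, were set to it, and a probe set was tested if 2 or more of the 4 arrays exceeded it. Of the chaperone probe sets 73 were tested, standing for 55 genes, and a gene was represented by its brightest one. Of these, 56 exceeded the floor on all 4 arrays and 2, of Hspa1l and Dnajc3, only on both 16-week arrays, so that the filter fixed their direction. Counts of genes go by the brightest probe set, also for the 7 genes whose probe sets disagreed in sign. The other 23 probe sets never exceeded 15.7. As a result 16 genes had no tested probe set: Cct2, Dnajb11, Dnajb2, Dnajb5, Dnajc11, Fkbp3, Fkbp5, Fkbp9, Hspa14, Hspa1b, Hspa2, Hspb11, Ppic, Ppie, Ppif and Ppig. Differences are given on the log2 scale as 16 weeks minus 8 weeks, and the ± value is limma's standard error (SE), with n = 2 samples per group. Precision is limited by the number of arrays.

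No chaperone passed the test on its own, and most of them were lower at 16 weeks on the deposited scale. Of the 55 genes 34 were lower and 21 higher, with a median difference of -0.19. Over all 5864 tested genes 44.7% were lower and the median was 0.07. The lowest differences were those of Tcp1, St13 and Fkbp8, and the highest was that of Hspa1l, whose direction the filter fixed. Of the 73 chaperone probe sets 0 passed limma's test at a Benjamini-Hochberg adjusted p of 0.05, as did 0% of all 7883 probe sets tested, and the smallest adjusted p of a member was 0.301 (Hspa1l), with 0.325 (a probe set of Hspa4) the next. At an unadjusted p under 0.05 there were 6 chaperone probe sets lower at 16 weeks, or 8.22%, against a background of 5.87%, and 3 higher, or 4.11%, against a background of 8.08%. The 2 groups did not overlap in 27 probe sets with lower values at 16 weeks, or 37%, against a background of 20.6%. They did not overlap in 12 with higher values, or 16.4%, against a background of 28.7%. Hspa1l is in both counts of higher probe sets, and a Dnajc3 probe set, its direction also fixed by the filter, is among the 12. The bacterial hybridisation controls themselves differed by a mean of -0.53 over 9 probe sets. Alignment of the arrays on these controls turned the chaperone median to 0.24, with 18 of the 55 genes then tested lower (32.7%). It moved the median of all genes to 0.53 with 15.1% lower. The chaperone median minus that of all genes was -0.26 on the deposited scale, -0.20 after quantile normalization, -0.27 on a common array median and -0.30 with the controls aligned. A common median and aligned controls multiply each array by a constant, so they could move this value only through the floor and filter. In mucosa, fewer cells that express a gene and less of its RNA per cell cannot be told apart.

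**Figure D1:**
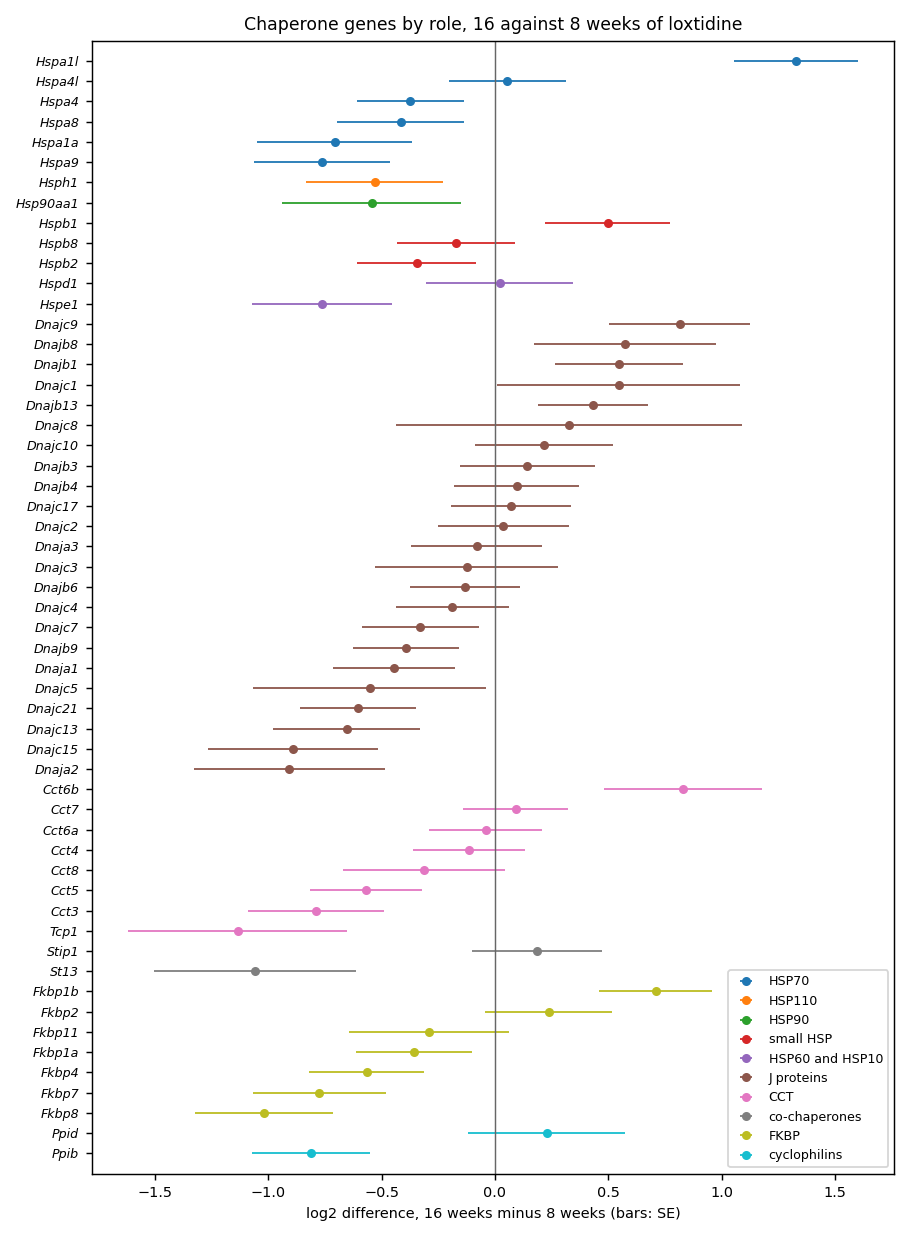
Log2 difference in intensity, 16 weeks minus 8 weeks of loxtidine, for the 55 tested chaperone genes in their role groups. Points are limma estimates from 2 samples per group and bars are 1 SE. On the deposited scale 34 points lie left of 0. With the arrays aligned on the hybridisation controls 18 of the 55 genes then tested are lower, and 54 genes could be compared between the scales.

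Apart from Hspa4, whose probe sets disagreed, 3 tested HSP70 genes were lower at 16 weeks on the deposited scale and 2 higher. Of the higher ones, the filter fixed the direction of Hspa1l, and Hspa4l gave 0.06 ± 0.26 with overlapping groups. The median of all 6 tested was -0.39, and with the controls aligned it was 0.21 over the 7 genes then tested. Hspa9, the mitochondrial HSP70 that pulls imported proteins into the matrix, read 132 and 132 in 16-week mucosa against 180 and 277 in 8-week mucosa. Both 16-week samples lay under both 8-week samples, which differed from each other more, and the difference was -0.76 ± 0.30 (limma adjusted p = 0.360). Hspa8, the constitutive cytosolic HSP70 and the brightest probe set of this family, read 196 and 150 in 16-week mucosa against 202 and 258 in 8-week mucosa, a difference of -0.42 ± 0.28 that turned to 0.11 with the controls aligned. Hspa1a, the stress-inducible form, was dim throughout, at 14.3 and 16.6 against 19.2 and 32.9 (-0.71 ± 0.34). The groups did not overlap for Hspa8 or Hspa1a, but for each the nearest pair of samples across the groups lay close together.

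Hspa1l, the HSP70 form known from mouse testis, lay the other way. It read 36.0 and 25.8 in 16-week mucosa against 5.3 and 8.1 in 8-week mucosa, where both samples were under the floor. Against the floor its mean at 16 weeks was 2.51-fold higher on the deposited scale, a log2 difference of 1.33 that was 1.26 on a common array median and 1.09 without 16-week sample 1. Since it passed the filter through the 16-week samples alone, its p (limma adjusted p = 0.301) is no evidence of a difference, and the requirement of values above the floor on all 4 arrays leaves it out. Hspa4, a nucleotide exchange factor related to HSP110, had 5 tested probe sets that disagreed. The brightest read 32.1 and 31.4 in 16-week mucosa against 44.0 and 38.4 in 8-week mucosa (-0.37 ± 0.24), and another read 20.7 and 12.9 against 34.4 and 35.3 (-1.09 ± 0.31). Yet another read 43.6 and 40.9 against 26.1 and 32.7 and gave 0.53 ± 0.25, and the remaining pair gave -0.09 and -0.19. No direction is given for Hspa4. Hspa4l gave 0.06 ± 0.26.

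The cytosolic partners of HSP70 were lower or mixed. Hsph1, the HSP110 protein that releases ADP from HSP70, read 71.0 and 84.4 in 16-week mucosa against 91.3 and 137 in 8-week mucosa. The groups did not overlap, and the difference was -0.53 ± 0.30, which was -0.24 without 8-week sample 2 and close to 0 with the controls aligned. Hsp90aa1, the inducible HSP90, read 77.0 and 39.5 in 16-week mucosa against 70.7 and 91.5 in 8-week mucosa (-0.54 ± 0.40). Its groups overlapped, and the value rested on 16-week sample 2, since without that sample it was -0.06. A dim second probe set gave 0.22 ± 0.47. The co-chaperone St13 (Hip), which steadies the ADP-bound state of HSP70, read 8.7 and 25 in 16-week mucosa against 45.3 and 29.1 in 8-week mucosa. One of its 16-week values was under the floor, the difference was -1.06 ± 0.45 or -0.54 without 16-week sample 1, and a second probe set gave -0.23 ± 0.54 with overlapping groups. Stip1 (Hop), which links HSP70 to HSP90, read 28.5 and 38.1 in 16-week mucosa against 25.7 and 32.7 in 8-week mucosa (0.18 ± 0.29). The groups of Stip1 overlapped, and its sign turned on a common array median (-0.04).

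Small heat shock proteins did not share a direction. Hspb1, which holds unfolding proteins and binds actin, read 16.2 and 21.5 in 16-week mucosa against 14.4 and 6.9 in 8-week mucosa, with 1 value under the floor (0.50 ± 0.27). Hspb2, a small heat shock protein of muscle, read 47.7 and 42.0 in 16-week mucosa against 50.1 and 64.5 in 8-week mucosa (-0.34 ± 0.26, and -0.02 on a dim second probe set). Hspb8, which works with Bag3 in the disposal of damaged proteins, read 115 and 115 in 16-week mucosa against 149 and 113 in 8-week mucosa (-0.17 ± 0.26). The 8-week samples of Hspb8 lay on both sides of the 16-week samples. With the controls aligned Hspb2 and Hspb8 were at 0.18 and 0.36.

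The mitochondrial chaperonin and its lid differed in direction on the deposited scale. Hspe1 (HSP10) read 322 and 213 in 16-week mucosa against 490 and 403 in 8-week mucosa. Both 16-week values were under both 8-week values, a difference of -0.76 ± 0.31 (limma adjusted p = 0.364). Hspd1 (HSP60) read 371 and 224 in 16-week mucosa against 283 and 286 in 8-week mucosa, so that the 16-week samples lay on both sides, and the difference was 0.02 ± 0.32, with 0.22 ± 0.35 on a second probe set. Hspd1 turned to -0.20 on a common array median. Whether the pair differed from each other was not tested.

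Among the J proteins, which deliver clients to HSP70 and start its ATPase, 12 of 23 tested genes were lower and 11 higher. Their median was -0.08, or 0.10 without 8-week sample 2. With the controls aligned it was 0.42 over the 22 genes then tested. Dnajc9, which hands histones to HSP70, read 69.0 and 65.6 in 16-week mucosa against 30.4 and 48.1 in 8-week mucosa. It was higher in both 16-week samples (0.82 ± 0.31, limma adjusted p = 0.353). Dnajc15, a regulator of the protein import motor in the inner mitochondrial membrane, read 14.9 and 22.6 in 16-week mucosa against 26.5 and 43.7 in 8-week mucosa (-0.89 ± 0.37). Dnajc21, which serves ribosome assembly, read 52.4 and 43.6 in 16-week mucosa against 66.6 and 79.4 in 8-week mucosa (-0.61 ± 0.26). For Dnajc15 and Dnajc21 the groups did not overlap, but with the controls aligned these genes were at -0.36 and -0.08.

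The brightest J protein, Dnajb6, which keeps aggregation-prone proteins soluble, read 239 and 209 in 16-week mucosa against 232 and 259 in 8-week mucosa. Its groups overlapped, the difference was -0.13 ± 0.24, and a second probe set gave 0.13 ± 0.24. Dnajb13, known from motile cilia and sperm tails, read 62.9 and 53.1 in 16-week mucosa against 41.8 and 43.9 in 8-week mucosa (0.43 ± 0.24), whereas its second probe set gave -0.18 ± 0.29. Dnajc3, an ER protein that restrains the kinase PERK, read 11.7 and 18.6 in 16-week mucosa against 7.9 and 22.1 in 8-week mucosa and gave -0.12 ± 0.40, with 0.26 ± 0.23 on another probe set. No direction is given for these 3 genes, whose probe sets disagreed, although for Dnajc3 the filter fixed the sign of the probe set that was higher. The other 17 tested J proteins were Dnaja1, Dnaja2, Dnaja3, Dnajb1, Dnajb3, Dnajb4, Dnajb8, Dnajb9, Dnajc1, Dnajc10, Dnajc13, Dnajc17, Dnajc2, Dnajc4, Dnajc5, Dnajc7 and Dnajc8. By the brightest probe set they ran between -0.91 (Dnaja2) and 0.57 (Dnajb8), 8 lower and 9 higher, with no unadjusted p under 0.0831. Dnajc2, a J protein of the ribosome, gave 0.04 ± 0.29 on that probe set, but its second one read 43.4 and 53.4 in 16-week mucosa against 35.6 and 17.9 in 8-week mucosa (0.93 ± 0.40, no overlap). The heat shock target Dnajb1 read 26.0 and 18.1 in 16-week mucosa against 14.7 and 15.0 in 8-week mucosa (0.55 ± 0.28), with no overlap, and Hspa1a was lower in the same samples, so these inducible genes differed in sign, which was not tested.

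CCT, the ring-shaped cytosolic chaperonin, had 6 of 8 tested genes lower and a median of -0.21 that became 0.27 with the controls aligned and 0.03 without 16-week sample 2. Cct3 was measured by 3 probe sets, all lower at 16 weeks. The brightest read 73.7 and 108 in 16-week mucosa against 169 and 141 in 8-week mucosa, a difference of -0.79 ± 0.30 (limma adjusted p = 0.353). Another read 87.8 and 66.3 in 16-week mucosa against 136 and 122 in 8-week mucosa (-0.76 ± 0.27), and the third gave -0.40 ± 0.38 with overlapping groups. Tcp1, the alpha subunit, read 15.5 and 19.9 in 16-week mucosa against 24.5 and 60.6 in 8-week mucosa. Its difference of -1.13 ± 0.48, the lowest of all members, rested on 8-week sample 2, and was -0.48 without that sample.

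Cct5 read 129 and 105 in 16-week mucosa against 176 and 169 in 8-week mucosa (-0.57 ± 0.25), with no overlap. A dim second probe set gave 0.45 ± 0.50, and with the controls aligned Cct5 was at -0.04. Cct7, the brightest of these subunits, read 168 and 158 in 16-week mucosa against 152 and 154 in 8-week mucosa (0.09 ± 0.23). Its sign turned on a common array median (-0.13). Cct6b, the testis form of the zeta subunit, read 36.4 and 41.9 in 16-week mucosa against 16.6 and 29.1 in 8-week mucosa, a difference of 0.83 ± 0.35 with no overlap. The subunits Cct4, Cct6a and Cct8 lay between -0.31 and -0.04. By the brightest probe set, the genes higher at 16 weeks were thus the testis form Cct6b and Cct7, whose difference was smaller than its SE. Differences between the subunits were not tested.

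Of 7 tested FKBP genes 5 were lower and 2 higher, with a median of -0.36 that became 0.17 with the controls aligned. Fkbp8, an FKBP anchored in the outer mitochondrial membrane that binds Bcl2, read 281 and 181 in 16-week mucosa against 460 and 454 in 8-week mucosa. The 8-week samples were close together and both above the 16-week samples, a difference of -1.02 ± 0.30 or 2.03-fold (limma adjusted p = 0.326). Fkbp7, an ER member, read 14.0 and 15.4 in 16-week mucosa against 20.6 and 30.6 in 8-week mucosa (-0.77 ± 0.29). Fkbp4, which assists steroid receptors with HSP90, read 223 and 186 in 16-week mucosa against 280 and 325 in 8-week mucosa. The difference was -0.57 ± 0.25 with no overlap, and 0.29 ± 0.42 on a dim second probe set. With the controls aligned Fkbp4 was at -0.04.

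Fkbp1b, which binds the ryanodine receptor, a calcium channel of muscle and other cells, read 113 and 118 in 16-week mucosa against 63.7 and 78.4 in 8-week mucosa. It was higher in both 16-week samples (0.71 ± 0.25, limma adjusted p = 0.343), and its close relative Fkbp1a, the common target of FK506, read 250.0 and 321 against 372 and 354 (-0.36 ± 0.26). The remaining FKBPs, Fkbp2 and Fkbp11, gave 0.24 and -0.29 with overlapping groups. Of the cyclophilins only Ppib and Ppid could be tested. Ppib, the ER cyclophilin that helps collagen fold, read 315 and 242 in 16-week mucosa against 470 and 498 in 8-week mucosa, a difference of -0.81 ± 0.26 with no overlap (limma adjusted p = 0.332). Ppid, a cyclophilin that joins HSP90 complexes, read 12.8 and 21.1 in 16-week mucosa against 9.8 and 16.2 in 8-week mucosa (0.23 ± 0.35, overlapping).

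**Figure D2:**
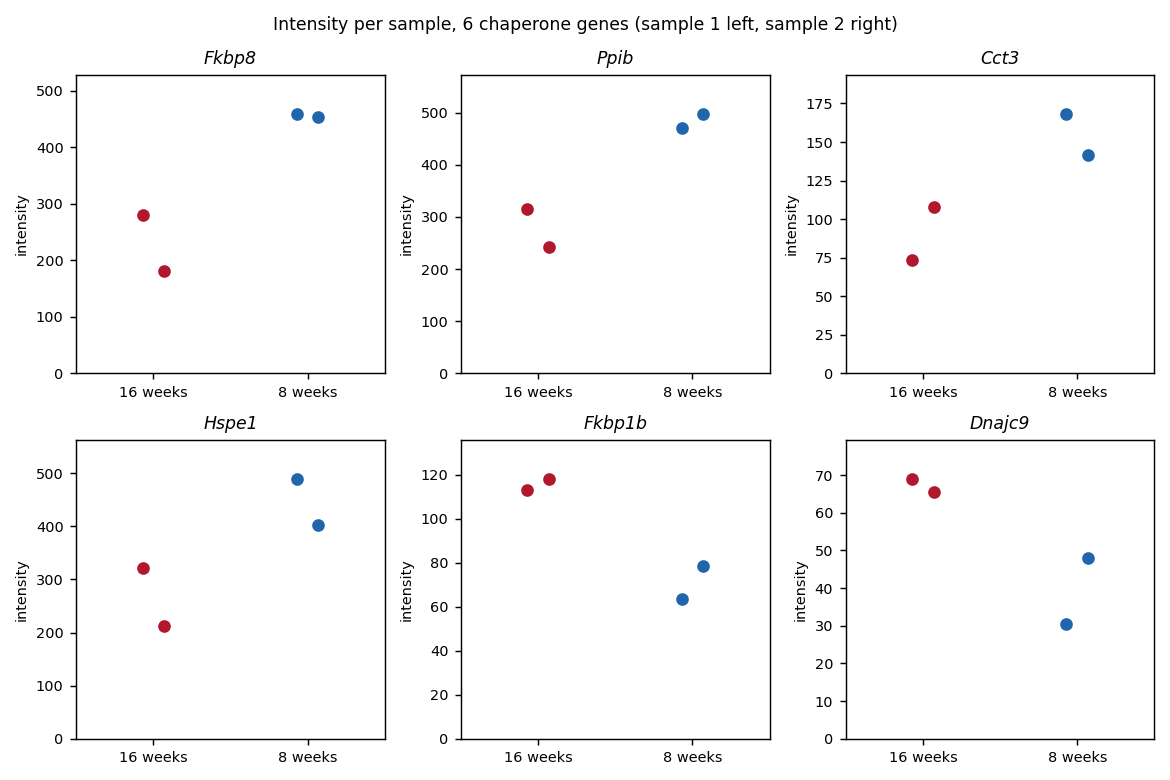
Deposited intensity in each sample (linear axis from 0) of 6 chaperone genes taken from those with the smallest p after their values were seen, 16 weeks on the left and 8 weeks on the right. For Fkbp8, Ppib, Cct3 and Hspe1 both 16-week points lie under both 8-week points, and for Fkbp1b and Dnajc9 they lie above them; Fkbp8 reads 281 and 181 against 460 and 454.

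Grouped by compartment, a grouping made after the values were seen, the mitochondrial residents had the lowest median. Of 6 tested genes, Hspa9, Hspd1, Hspe1, Dnaja3, Dnajc15 and Fkbp8, 5 were lower at 16 weeks. In 4 of these the groups did not overlap, against 1239 of all 5864 tested genes lower without overlap. The median of the 6 genes was -0.76. That median was -0.59 after quantile normalization, -0.98 on a common array median, -0.23 with the controls aligned, -0.50 with a lower floor (from the arrays' 20th percentiles) and -0.42 with no filter, and it ran from -0.82 to -0.49 with a sample left out. Dnaja3, a mitochondrial J protein, read 109 and 94.0 in 16-week mucosa against 89.4 and 129 in 8-week mucosa (-0.08 ± 0.29). Hspa9, Hspd1, Hspe1, Dnaja3 and Fkbp8 were bright, at mean intensities of 83.8 and more, where 61% of all genes were lower. Whether brightness had a part in the low mitochondrial median was not tested. The 8 tested ER residents had 5 genes lower and a median of -0.21, which became 0.23 with the controls aligned, 0.16 with the lower floor, 0 with no filter and 0.09 without 8-week sample 2. The remaining 41 genes, mostly of the cytosol and nucleus, had 24 lower and a median of -0.17. No test of these groups against each other was made.

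On the deposited scale bright probe sets in general were lower at 16 weeks, and many chaperones are bright. All tested genes were split by brightness into 4 bands of equal size. In the brightest band, at intensities of 83.8 and more, 17 of 22 chaperone genes were lower (77.3%) with a median of -0.34. All genes of that band were lower in 61% of cases with a median of -0.13. In the next band down the medians were -0.34 for 9 chaperone genes and 0.07 for all genes, in the one below it -0.19 for 13 and 0.16, and in the dimmest 0.10 for 11 and 0.19. The chaperone medians were thus under the median of all genes in each band, by amounts that were not tested.

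**Figure D3:**
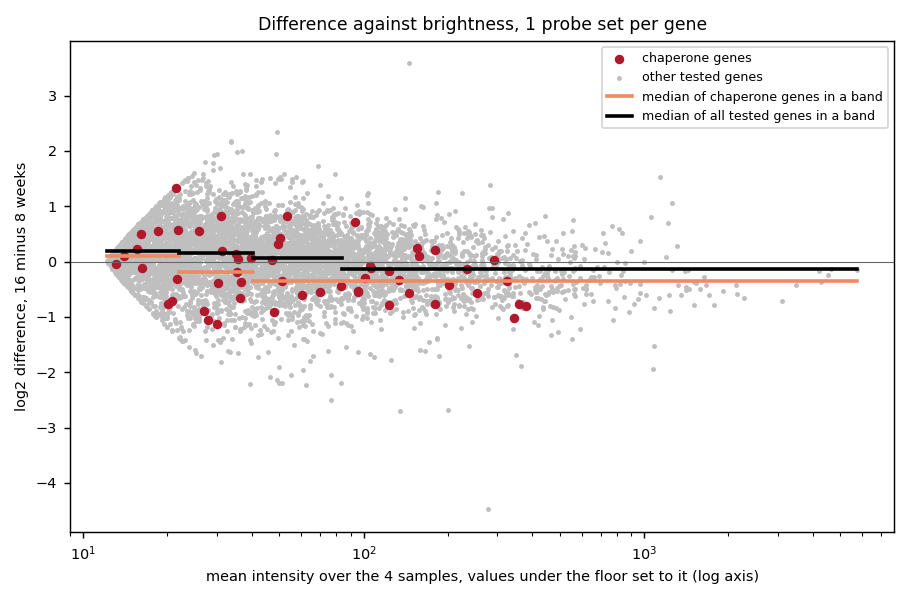
Log2 difference, 16 minus 8 weeks on the deposited scale, against mean intensity (log axis) for 5864 tested genes, with the 55 chaperone genes in red. Bars mark medians within the 4 bands of brightness; in the brightest band the chaperone median is -0.34 and that of all genes is -0.13, and alignment on the hybridisation controls moves the overall medians to 0.24 and 0.53.

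In the median the 2 samples at 8 weeks differed from each other more than the groups did, for the chaperones and for all genes. The median log2 ratio of 8-week sample 1 over sample 2 was -0.26 for the chaperone genes, with 13 of 55 higher in sample 1, and -0.16 for all tested genes, with 32.8% higher. At 16 weeks sample 1 over sample 2 gave 0.08, with 31 of 55 higher (56.4%, against 55.6% of all tested genes). The highest value of a chaperone gene was in 8-week sample 2 for 26 of 55 genes (47.3%), against 27.8% of all tested genes. The lowest was in 16-week sample 2 for 19 (34.5%, against 26.8% of all tested genes) and in 16-week sample 1 for 13 (23.6%, against 14.2%). It was in 8-week sample 1 for 16 (29.1%, against 34.7%) and in 8-week sample 2 for 4 (7.27%, against 12.9%). Without 8-week sample 2 the chaperone median was -0.16 with 33 of 55 genes lower, and that of all genes was 0.16. Without 8-week sample 1 these values were -0.32 with 38 lower, and -0.03. Single genes also rested on 1 sample: without 8-week sample 2 Hspa9 was at -0.45, Dnajc15 at -0.53 and Fkbp7 at -0.49. Without 8-week sample 1 Dnajc9 was at 0.48 and Cct6b at 0.42, and Cct3 was at -0.51 without 16-week sample 1. Hspe1 was at -0.46 without 16-week sample 2.

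**Figure D4:**
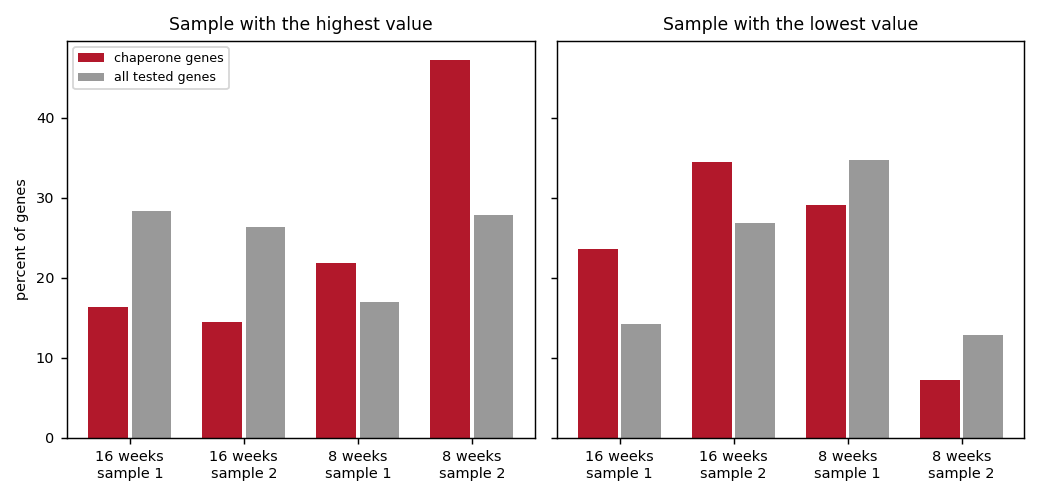
Percent of genes whose highest (left panel) or lowest (right panel) value fell in each sample, for the 55 chaperone genes (red) and all 5864 tested genes (grey). The tallest red bar on the left is 8-week sample 2 at 47.3%, against 27.8% of all tested genes, and the lowest red bar on the right is the same sample at 7.27%.

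Markers of other cells differed between the groups or between single samples, and their part in the chaperone values was not tested. Of 62 marker genes listed for 8 cell types 39 were tested, 10 were too dim and 13 were unnamed here; 0 probe sets of the named markers were at 0 on all arrays. Summed intensities of 7 tested smooth muscle markers, 6 of them lower, were 1747 and 1677 in 16-week mucosa against 3332 and 2864 in 8-week mucosa. For 4 intestinal-type markers, all lower, they were 116 and 118 against 1081 and 194, so that 8-week sample 1 stood apart. Of these Vil1 (7.2 and 3.1 against 23.3 and 12.5) exceeded the floor only in 8-week mucosa, so that the filter fixed its direction. Akp3 read 13.5 and 9.6 against 205 and 8.9, and was lower through 8-week sample 1 alone. The sums of 5 pancreatic acinar markers were 2103 and 6444 against 3497 and 768, those of 5 squamous markers 266 and 971 against 451 and 394, and those of 6 lymphocyte markers 269.6 and 302 against 173 and 223. The 4 parietal markers, which define the acid-secreting mucosa, gave 7150 and 6363 against 6934 and 8935. Sums of 3 mucous cell markers were 4531 and 4342 against 5262 and 5407, mostly from Tff1. All 3 were lower at 16 weeks, Tff1 at -0.24, Muc5ac at -0.63 and Tff2 at -1.09. The 5 tested ECL and neuroendocrine markers gave 597 and 542 against 397 and 467, 4 of them higher at 16 weeks, while Hdc, the histamine-forming enzyme that defines ECL cells, was too dim to test. As a sign of RNA quality, the ratio of the 3' to the 5' actin control was 1.46 and 1.63 in 16-week mucosa and 1.26 and 1.16 in 8-week mucosa. That of the Gapdh control was 0.891 and 0.647 in 16-week mucosa against 0.714 and 0.589 in 8-week mucosa, where the groups overlapped.

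Other genes of protein folding, listed by name apart from the members, lay in the same direction on the deposited scale. Of 55 listed genes 29 were tested, 20 lower and 9 higher, with a median of -0.36 and 0 past limma's adjusted threshold. With the controls aligned 10 were lower and 19 higher, with a median of 0.17. At an unadjusted p under 0.05 there were 7 lower and 1 higher, where all 5864 tested genes had 340 lower and 443 higher. Bag1, which makes HSP70 release its client, read 60.3 and 42.6 in 16-week mucosa against 85.5 and 92.4 in 8-week mucosa (-0.81 ± 0.28). Lonp1, the protease of the mitochondrial matrix, read 20.6 and 5.1 in 16-week mucosa against 45.2 and 31.2 in 8-week mucosa (-1.25 ± 0.37), with 1 value under the floor. Of 11 tested ER genes 7 were lower and 4 higher, with a median of -0.13. The lowest were Hspa5, Pdia3 and Pdia6, which fold and cross-link secreted proteins, at -1.10, -0.99 and -0.75, and the highest were Erp29 at 0.32 and Creld2 at 0.22. Hmox1, the haem-degrading enzyme induced by oxidative stress, lay the other way, at 177 and 197 in 16-week mucosa against 105 and 129 in 8-week mucosa (0.69 ± 0.25, limma adjusted p = 0.349). The heat shock factors themselves gave no value: of 4 listed genes 0 could be tested.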

How the data were processed

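Total RNA from 4 samples had been hybridised to mouse U74 Affymetrix arrays, per the labels. The values used were the authors' deposited intensities of 12488 probe sets, whose derivation from the scans is not stated in the sources used here. Trimmed means of the 4 arrays lay within 4.76% of their common mean, so the deposited scale was kept. Genes were named by GEO's platform annotation, which gave 10833 of 12422 probe sets other than controls 1 symbol, 396 several and 1193 none; 4 probe sets holding a member symbol among several were left out. Promoter sequences were not used here, so a planned motif search was not run.

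Values were floored at 12.15 (median of the arrays' 40th percentiles) and log2 taken; 7883 probe sets were fitted with limma 3.58.1 (lmFit, eBayes; R 4.3.3; 2-sided; Benjamini-Hochberg). An exact permutation test of 2 against 2 cannot give p below 0.333. Separate animals are not stated in the labels, so a p-value reflects the spread between the samples at hand and that spread may be technical. Members and lists were chosen with earlier results of these data known. Members described in full were, per role group, the 3 with the smallest p, the brightest and those whose probe sets disagreed in sign (31 genes); the other 24 are given by range. On simulated data for this comparison, with 7635 probe sets tested, limma called 0% of 2-fold, 28.6% of 4-fold, 75.5% of 8-fold and 88% of 16-fold changes, with 3 false calls. Alternatives covered scaling, floor, filter, probe set choice, prior, replicate block and leaving out each sample.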

Additional observations from a re-analysis of the deposited data

How the results depend on the processing

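With 2 arrays per group limma called 0% of 2-fold and 28.6% of 4-fold changes on simulated data, so changes of such sizes could be missed. In each alternative run with all 4 samples 0 member probe sets passed limma's adjusted threshold. With no filter 22 of all 12422 probe sets passed it. At an unadjusted p under 0.05 these runs held 0 to 19 members lower and 1 to 13 higher, against 6 and 3 on the deposited scale. The 19 lower came on a common array median, where 59.7% of all genes were lower. The 13 higher came with the controls aligned, where 15.1% of all genes were lower. The chaperone median minus that of all tested genes was negative in each setting, from -0.36 (above the floor on all 4 arrays) to -0.07 (no filter). Several settings could hardly change this value. A common median and aligned controls multiply each array by a constant, which acts on it only through the floor and filter. The replicate block and the changed prior leave the differences as they are. The causes of the changes below were not tested, except that fewer samples or genes enter where they are left out.

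With the arrays aligned on the hybridisation controls, 18 chaperone genes were lower (32.7%, against 15.1% of all genes). Without overlap, 4 member probe sets lay lower (5.63%, against 4.6%) and 35 higher (49.3%, against 61.6%). The medians were 0.24 for all chaperones, 0.21 for HSP70 (7 genes), -0.0027 for HSP110 and -0.016 for HSP90. They were 0.36 for small heat shock proteins, 0.16 for HSP60 and HSP10, 0.42 for J proteins (22 genes) and 0.27 for CCT. Co-chaperones gave 0.052, FKBPs 0.17 and cyclophilins 0.16. Signs turned for 16 of 54 genes compared, among them Hspa8 (0.11), Hspa4 (0.16), Hspb2 (0.18), Hspb8 (0.36), Dnajb6 (0.40) and Dnajc3 (0.22). Lower values shrank, as for Fkbp4 (-0.04), Cct5 (-0.04), Dnajc21 (-0.08), Hspe1 (-0.23), Cct3 (-0.26) and Ppib (-0.28). Higher ones grew, as for Fkbp1b (1.24) and Dnajc9 (1.34). On a common array median the values were -0.40 for all chaperones, -0.60 for HSP70, -0.40 for small heat shock proteins and -0.45 for cyclophilins. There signs turned for 9 of 55 genes compared, among them Hspd1 (-0.20), Cct7 (-0.13) and Stip1 (-0.038). Quantile normalization gave -0.0059 for cyclophilins and turned the sign of 5 of 55 genes compared, among them Dnajb6 (0.028). The lower floor gave -0.026 for FKBPs and 0.16 for Dnajc3, no filter -0.18 for HSP70 and -0.035 for cyclophilins, and the stricter filter 0.18 for co-chaperones and -0.81 for cyclophilins, 1 gene each. Averaging the probe sets of each gene put the J protein median and Dnajc3 at 0.070. The median of the ER residents was also -0.35 on a common array median, -0.34 with the stricter filter, -0.11 with averaged probe sets and -0.036 without probe sets of lower specificity. Without the ER residents, an alternative chosen after seeing the data, 29 of 47 genes were lower, the median was -0.19 and the cyclophilins, then Ppid alone, gave 0.23.

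With a sample left out, the lone sample being assumed to vary like the others, 32 to 38 chaperone genes were lower with medians of -0.32 to -0.13. Member probe sets without overlap numbered 30 to 43 lower (41.1% to 58.9%, against 27.7% to 37% of all probe sets). Those higher numbered 15 to 26 (20.5% to 35.6%, against 34.7% to 46.8%), as fewer samples overlap less. Medians ran from -0.24 to 0.10 for J proteins (positive without 8-week sample 2), -0.68 to -0.39 for FKBPs, -0.38 to 0.03 for CCT and -0.18 to 0.03 for small heat shock proteins. Hspd1 ran from -0.34 to 0.38, Dnajc3 from -0.56 to 0.31, Hspb8 from -0.37 to 0.027, Stip1 from -0.025 to 0.39 and Ppid from -0.13 to 0.59. The labels give no meaning to the sample numbers, and same-numbered samples did not deviate together (r = -0.05 over 7883 probe sets). With the number as a replicate block, 0 member probe sets passed, and 5 lower and 2 higher had an unadjusted p under 0.05. The median of -0.19 could not change, since each group holds both numbers and the block then leaves the differences as they are.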
